A study of Oryza sativa Japonica Group with 21 samples.

Results

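Stamens of rice at stage 5 were compared with stamens at stage 4, with 3 arrays per stage, which are 6 of the 21 arrays of the series. The members were taken by their sample titles, and every probe set other than the control probe sets was compared, 57258 in all. Both groups were stamens of Oryza sativa japonica, cultivar Zhonghua 15, and the labels name no transgene, mutation or treatment in either. Stamens were dissected out of spikelets under a microscope, and a side of each panicle, which had been split lengthwise, was sectioned to check the stage. Day length was 11 h at about 30 °C in growth chambers, other plants stood in the field, and the origin of each array's plants is not stated. The labels number the stages and say nothing of the cells present at each. They call the 3 samples of a stage biological replicates without naming the plants. The other arrays hold stamens at stages 2, 3 and 6, primordia of leaf 3, and leaf 3 when it had just expanded.

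A young anther lobe is built from a few founder cells that divide into an inner sporogenous lineage, whose cells later enter meiosis, and an outer parietal lineage, which forms the wall layers. The innermost wall layer, the tapetum, feeds the developing meiocytes and pollen and supplies material for the pollen wall. In rice the receptor kinase MSP1 limits how many cells become sporogenous, and a set of MYB and bHLH transcription factors, GAMYB, BHLH142, TDR and EAT1 among them, is required for the tapetum to form and later to break down.

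Few probe sets passed the test between the stages. FON1, a receptor kinase that limits the size of the floral meristem, was 2.53-fold higher at stage 5, and CYP703A3, a cytochrome P450 that hydroxylates fatty acids for the anther cuticle and pollen wall, was 1.32 higher on the log2 scale from a stage 4 level close to that of leaves. These were the only probe sets with an informative gene name among the 17 that passed the test. The calls were not stable: 0 were made in a fit to the 6 arrays alone, and 0 to 87 when 1 array was left out. FON1 passed in 8 of 26 alternatives and CYP703A3 in 9 of 24. The tapetum regulators TDR and GAMYB and the sporogenous regulator MSP1 stood higher on all 3 stage 5 arrays than on all 3 stage 4 arrays, without passing the test. Kinesins and DNA replication genes lay slightly above their stage 4 levels, nearly all in the same direction and with none passing. Floral MADS-box genes had a median difference of -0.01 and meiosis genes of 0.13, beside 0.03 over all genes.

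All values are log2 levels of a probe set as the authors deposited them, and each difference is stage 5 minus stage 4 on that scale, so that 1 is a 2-fold difference. The probes of different probe sets bind unequally, so levels are compared only within a probe set. A probe set was called when limma's test over the 15 stamen arrays gave a Benjamini-Hochberg adjusted p under 0.05 and the means differed at least 2-fold. In bulk tissue, fewer cells of a type cannot be told apart from less RNA per cell.

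The stamen label was set against a few marker genes. Of the genes for stamen identity, OsMADS16 alone is compared with leaf here, and markers of lemma and palea are not. OsMADS16, a B-class gene of lodicule and stamen identity, stood at 13.05 ± 0.08 at stage 5 and 13.06 ± 0.04 at stage 4, against 5.23 ± 0.43 in leaf primordium (SD, n = 3 each). MEL1, an Argonaute of the germ line, stood at 12 ± 0.01 at stage 5 and 11.31 ± 0.12 at stage 4, against 6.86 ± 0.14 in leaf primordium. Of the tapetum markers, BHLH142 was far above leaf primordium (9.40 ± 0.30 at stage 5 and 8.99 ± 0.28 at stage 4, against 3.45 ± 0.19), whereas EAT1 was level with it (3.63 ± 0.19 and 3.71 ± 0.11, against 3.70 ± 0.11). Of the carpel and ovule markers, OsMADS13 stood at 5.67 ± 0.15 at stage 5 and 5.67 ± 0.24 at stage 4, close to leaf primordium (5.55 ± 0.11). DL stood higher, at 7.67 to 8.12 at stage 5 and 7.76 to 7.94 at stage 4. Whether carpel tissue was taken along with the stamens was not tested. The arrays of the stages were alike: r over all probe sets was 0.990 to 0.992 within stage 5, 0.990 to 0.995 within stage 4 and 0.985 to 0.994 between them. Stage 5 replicate 3 lay closer to stage 4 replicate 1 (0.994) than to either of its own replicates. The 3' minus 5' signal of the actin and GAPDH controls, a measure of RNA integrity and amplification that was known to be alike when these stages were chosen, was 1.86 to 2.16 at stage 5 and 1.96 to 2.07 at stage 4.

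Of the 57258 probe sets, 17 were called (0.0297%), 14 higher (0.0245%) and 3 lower (0.00524%) at stage 5. With no fold threshold, 26 had an adjusted p under 0.05 (0.0454%), and 5786 had an unadjusted p under 0.05 (10.1%). The smallest adjusted p was 0.00819 and most of the 17 lay between 0.0342 and 0.0467, close to the threshold. A probe set with the median standard error of 0.138 needed a difference of 0.873 to reach the adjusted p, and of 1 to be called. Means of 400 probe sets differed at least 2-fold (0.699%), 209 of them higher (0.365%) and 191 lower (0.334%). The steps on either side, each of which shares 3 arrays with this one, gave 4 calls between stages 4 and 3 (0.00699%) and 0 in limma between stages 6 and 5, with 5959 probe sets at an unadjusted p under 0.05 (10.4%). The count of calls changed when single arrays were left out. It was 0 without stage 4 replicate 2 (3648 at an unadjusted p under 0.05) or without stage 5 replicate 2 (4407). It was 1 without stage 2 replicate 2, stage 5 replicate 1, stage 6 replicate 1 or stage 6 replicate 2, and 2 without stage 2 replicate 1. It was 3 without stage 4 replicate 3, 4 without stage 2 replicate 3 and 5 without stage 4 replicate 1. It was 6 without stage 6 replicate 3, and 27, 13 and 19 without stage 3 replicates 1, 2 and 3. It was 87 without stage 5 replicate 3. In each of these refits all 17 differences kept their sign, and 15 to 17 stayed at least 2-fold. Arrays of stages 2, 3 and 6 enter this comparison only through the estimate of spread. In a fit to the 6 arrays of stages 5 and 4 alone, limma called 0 probe sets, with 6435 at an unadjusted p under 0.05.

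FON1 stood at 8.13, 7.72 and 8.23 on the stage 5 arrays and at 6.47, 6.77 and 6.82 on the stage 4 arrays. The groups did not overlap, and the difference was 1.34 ± 0.202 (SE, limma adjusted p = 0.0463). The level at stage 6 was higher still, with a mean of 8.80, while stages 2 and 3 had means of 6.23 and 6.33. In leaves, FON1 averaged 5.04 in the primordium and 7.87 in the expanded leaf. CYP703A3 stood at 5.06, 4.70 and 4.57 at stage 5 and at 3.46 on each of the 3 stage 4 arrays. The difference was 1.32 ± 0.204 (SE, limma adjusted p = 0.0463). Its stage 4 level was close to that of leaf primordium (3.24 ± 0.27) and of stage 3 (3.42), so no fold is given, since the files do not show whether the probe set was above background at stage 4. Its mean at stage 6 was 6.20. Over the alternatives tried, FON1 passed in 8 of 26 (adjusted p 0.0133 to 0.29) and CYP703A3 in 9 of the 24 that tested it (adjusted p 0.0145 to 0.29).

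The other 15 called probe sets have no informative gene name in the annotation used, and are given here by gene symbol where they have one, chosen after their values were seen. LOC4325834 and LOC4342716 had the largest differences. LOC4325834 stood at 6.75, 6.12 and 5.35 at stage 5 and at 3.98, 3.48 and 3.84 at stage 4, a difference of 2.31 ± 0.364 (SE, adjusted p = 0.0467). LOC4342716 stood at 7, 6.74 and 5.67 at stage 5 and at 4.74, 3.98 and 3.76 at stage 4, also a difference of 2.31 (SE 0.323, adjusted p = 0.0417). In both, stage 5 replicate 3 was the lowest of its group. LOC4340529 was 4.53-fold higher at stage 5 (8.47 against 6.29), a probe set with no gene in the annotation 4.18-fold (6.76 against 4.69) and LOC4333627 3.09-fold (8.51 against 6.88). Whether the probe set with no gene was above background at stage 4 is not known, so its fold is uncertain.

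LOC4335955 had the smallest adjusted p. It stood at 6.84, 6.64 and 6.17 at stage 5 and at 5.06, 5.16 and 5.16 at stage 4, a difference of 1.42 ± 0.144 (SE, adjusted p = 0.00819), and it passed in 22 of the 25 alternatives that tested it. LOC4325834, with 6 of 25, passed in the fewest of the 17, and LOC4333627 and LOC4336629 passed in 7 and 15 of 26. LOC4330750 stood at 10.11, 10.21 and 10.13 at stage 5 and at 8.42, 8.87 and 8.98 at stage 4. LOC107279842 and LOC4323973 took a course unlike the others over the stages. LOC4323973 stood at 5.93, 5.68 and 5.66 at stage 5 and at 4.58, 4.57 and 4.57 at stage 4, and its mean at stage 6 was 4.53, back at the stage 4 level. LOC107279842 had its lowest stage mean at stage 4 (4.11), below stages 2 (4.76) and 3 (4.41), and stood at 5.34, 5.43 and 5.76 at stage 5.

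Among the 17, 3 probe sets were lower at stage 5. LOC4336629 stood at 4.93, 4.61 and 5.53 at stage 5 and at 6.91, 6.71 and 6.69 at stage 4, which is 3.36-fold lower (adjusted p = 0.0342). Whether it was above background at stage 5 is not known, so this fold is uncertain. LOC4327905 stood at 6.43, 7.07 and 6.97 at stage 5 and at 8.08, 8.79 and 8.64 at stage 4, 3.21-fold lower (adjusted p = 0.0463), and its mean in the expanded leaf was 11.38. A probe set with no gene in the annotation stood at 8.43, 9.13 and 9.17 at stage 5 and at 10.21, 9.89 and 10.27 at stage 4 (difference -1.21, adjusted p = 0.0463). It had a mean of 11.12 at stage 3, 7.85 at stage 6 and 4.97 in leaf primordium.

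**Figure D1:**
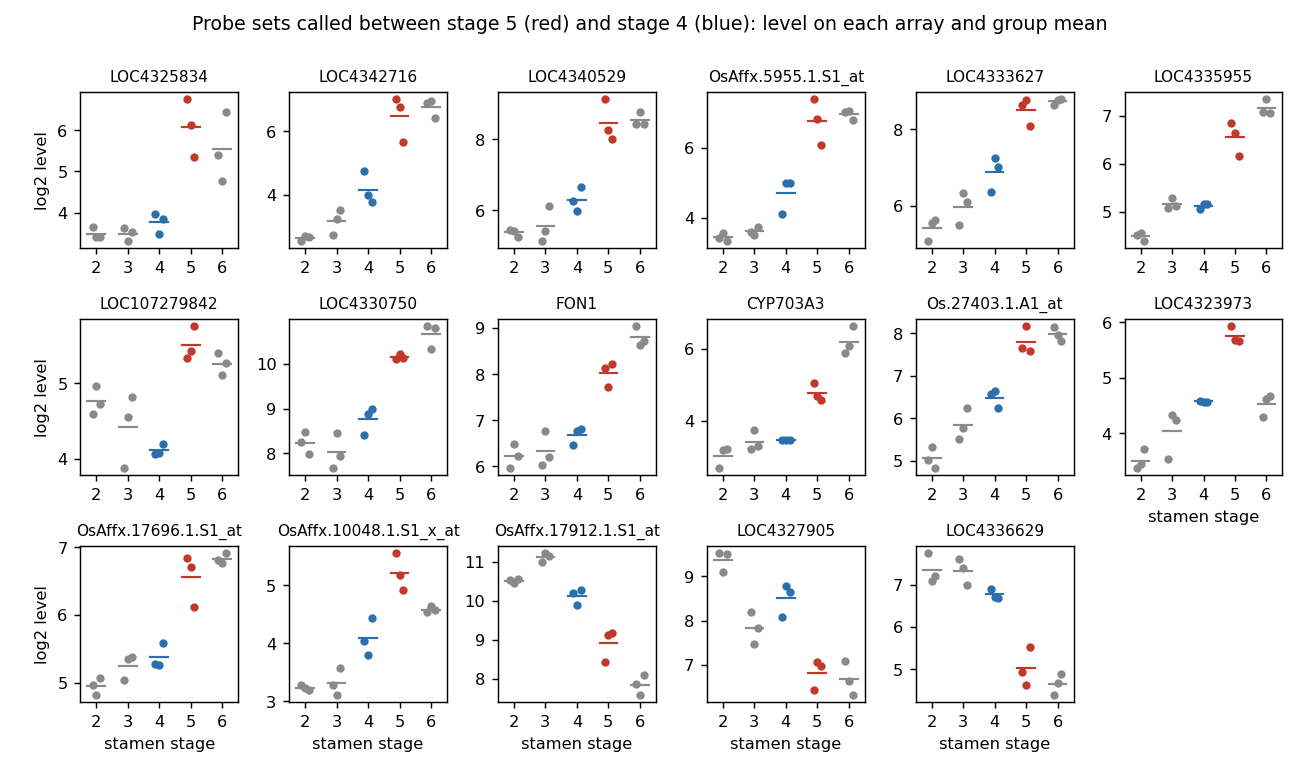
Log2 level (y axis) of the 17 called probe sets on each stamen array, by stage (x axis); points are arrays, bars are group means, and the y axes differ. In every panel the 3 stage 5 points (red) lie clear of the 3 stage 4 points (blue), and LOC4323973 returns at stage 6 to a mean of 4.53, near its stage 4 mean of 4.58.

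Stages 6 and 3 flank the pair and share no array with it, so they give a separate measure of the same course. The normalization and the estimate of spread are still common to all the arrays. The mean of the poly-A spike controls was 12.42 to 13.33 at stage 3 and 11.32 to 11.77 at stage 6. The actin and GAPDH 3' minus 5' signal was 1.45 to 2.69 at stage 3 and 1.27 to 1.94 at stage 6. At stage 2 it was 3.19 to 3.41. That of ubiquitin and cyclophilin was -0.13 to 1.10 at stage 3 and 0.25 to 0.71 at stage 6. The part of these control signals in the calls was not tested. Between stages 6 and 3, 1614 probe sets were called (2.82%), 784 higher (1.37%) and 830 lower (1.45%) at stage 6. Of the 17 called between stages 5 and 4, 15 were called in the same direction between stages 6 and 3, which is 88.2% of these 17 and 0.929% of the 1614. The exceptions were LOC107279842 (0.85 higher at stage 6 than at stage 3) and LOC4323973 (0.50).

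Most of the probe sets chosen on stages 6 and 3 differed in mean the same way between stages 5 and 4. The 784 higher at stage 6 had a median difference of 0.67 between stages 5 and 4 (quartiles 0.44 and 0.92), and the stage 5 mean was above the stage 4 mean in 777 of them (99.1%), against 45.9% of all probe sets. In 505 (64.4%) all 3 stage 5 values were above all 3 stage 4 values, against 7.66% of all probe sets. The 830 lower at stage 6 had a median of -0.57 (quartiles -0.86 and -0.34), and in 346 (41.7%) all 3 stage 5 values were below all 3 stage 4 values, against 9.27% of all probe sets. Few of these differences passed the test on their own, 12 of the 784 and 3 of the 830. Probe sets called between stages 3 and 2 had smaller medians between stages 5 and 4, of 0.15 for the 745 higher at stage 3 (1.3% of all) and -0.08 for the 619 lower (1.08%). Their means still differed the same way in 72.2% and 65.4%, and without overlap in 20.7% and 19.1%.

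The arrays of a stage did not stand at the same point of this course. Relative to the stage 4 mean, the median over the 784 probe sets was 0.91, 0.57 and 0.51 on stage 5 replicates 1, 2 and 3, and -0.07, -0.04 and 0.11 on the stage 4 arrays. Over the 830, it was -0.89, -0.50 and -0.30 on the stage 5 arrays and 0.06, 0.04 and -0.11 on the stage 4 arrays. Stage 5 replicate 1 was thus the farthest from stage 4 in both sets and replicate 3 the nearest. Replicate 1 also had the highest mean of the poly-A spike controls (12.49, against 11.58 at the lowest of stage 5 and 11.55 to 11.87 at stage 4) and the highest 3' minus 5' signal of the ubiquitin and cyclophilin controls (0.99, against 0.54 and 0.43 on its other replicates and 0.42 to 0.67 at stage 4). The actin and GAPDH signal on stage 5 replicates 1, 2 and 3 was 2.16, 2.04 and 1.86, in the order of the medians. The part of these differences in the result was not tested. The stage 3 arrays, on which the sets were partly chosen, also scattered. Their medians relative to the stage 4 mean were -0.50, -0.18 and -0.25 over the 784 and 0.68, -0.02 and 0.33 over the 830.

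**Figure D2:**
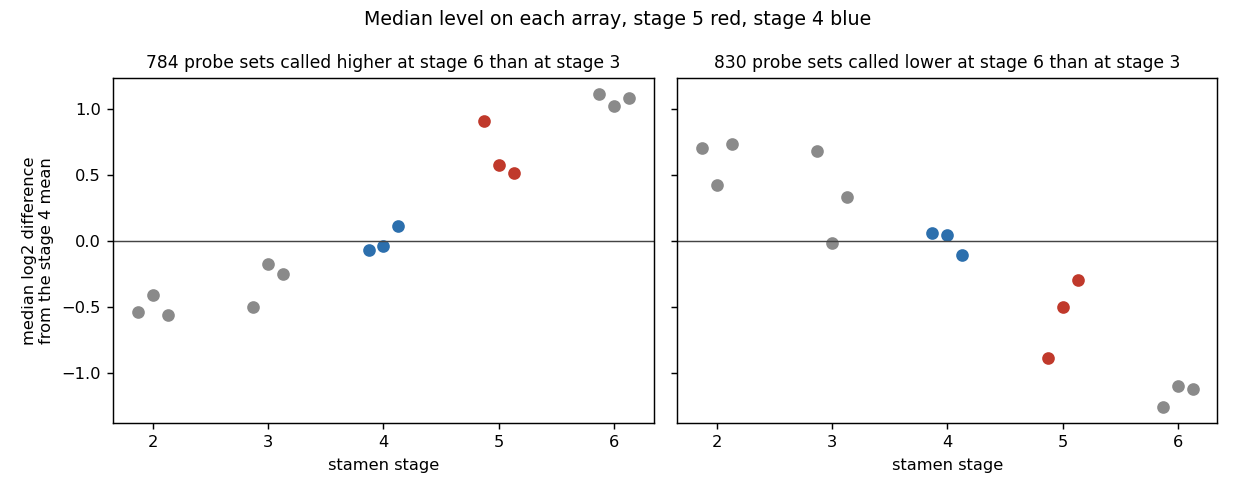
Median over the probe sets called between stages 6 and 3 of the log2 level minus the probe set's stage 4 mean (y axis), for each stamen array by stage (x axis), in the 784 probe sets higher at stage 6 (left) and the 830 lower (right). Points are arrays. The stage 5 arrays (red) lie between 0.51 and 0.91 on the left and between -0.89 and -0.30 on the right, apart from the stage 4 arrays (blue) and short of stage 6.

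The genes that set the number of sporogenous cells and the fate of the tapetum were examined next. MSP1 stood at 11.58, 11.45 and 11.38 at stage 5 and at 10.29, 10.59 and 10.76 at stage 4. The groups did not overlap, but the difference of 0.92 (95% interval 0.45 to 1.40) did not pass (adjusted p = 0.202). Between stages 6 and 3, MSP1 was called higher by 1.64 (adjusted p = 0.00097). TDL1A, the small peptide that binds MSP1, stood at 7.48, 7.45 and 7.69 at stage 5 and at 7.36, 7.39 and 7.40 at stage 4 (difference 0.16, adjusted p = 0.746). ROXY2, a glutaredoxin whose relatives in maize and Arabidopsis act in early anther lobes, had a difference of 0 with a wide interval (-1.49 to 1.49).

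TDR stood at 6.52, 5.63 and 5.48 at stage 5 and at 4.53, 4.39 and 4.73 at stage 4, a difference of 1.33 ± 0.246 (SE, adjusted p = 0.103). GAMYB, a MYB factor that acts downstream of gibberellin, stood at 9.42, 8.66 and 9.12 at stage 5 and at 8.03, 7.46 and 8.12 at stage 4, a difference of 1.2 ± 0.253 (SE, adjusted p = 0.163). In neither gene did the groups overlap, and both were called higher at stage 6 than at stage 3, TDR by 2.61 and GAMYB by 2.26. The GAMYB probe set is of the _x_at kind, some of whose probes can match other sequences. BHLH142 took another course. It stood at 9.54, 9.62 and 9.06 at stage 5 and at 8.77, 9.30 and 8.90 at stage 4, so the groups overlapped (difference 0.41, adjusted p = 0.822). Its stage means were 4.69, 7.88, 8.99, 9.40 and 9.89 from stage 2 to stage 6, with the larger steps before stage 4. EAT1 and PTC1, which act later in the tapetum, had differences of -0.08 and -0.05, and at stage 5 EAT1 stood at 3.51 to 3.85 and PTC1 at 3.20 to 3.25. The 5 tapetum regulators had 0 calls, a median difference of 0.41 and 3 stage 5 means above stage 4, beside a median of 0.03 over all 17905 genes (1 probe set each, 0.067% called).

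Among the 7 late tapetum and pollen wall genes, CYP703A3 alone was called, where 0.067% of all genes were, and the median difference was 0.13. RAFTIN1, a BURP-domain protein known from the tapetum of wheat and rice, stood at 5.62, 5.14 and 5.57 at stage 5 and at 4.87, 5.09 and 5.11 at stage 4 (difference 0.42, adjusted p = 0.402). The cysteine protease gene CP1 lay lower at stage 5, at 4.58, 4.45 and 4.46 against 5.00, 4.69 and 4.72 at stage 4, and did not pass (adjusted p = 0.355). C6, a lipid transfer protein gene of the tapetum, had a difference of 0.13, C4 of -0.26, RTS of 0.15 and AP25 of 0.06, with adjusted p from 0.534 to 0.978.

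**Figure D3:**
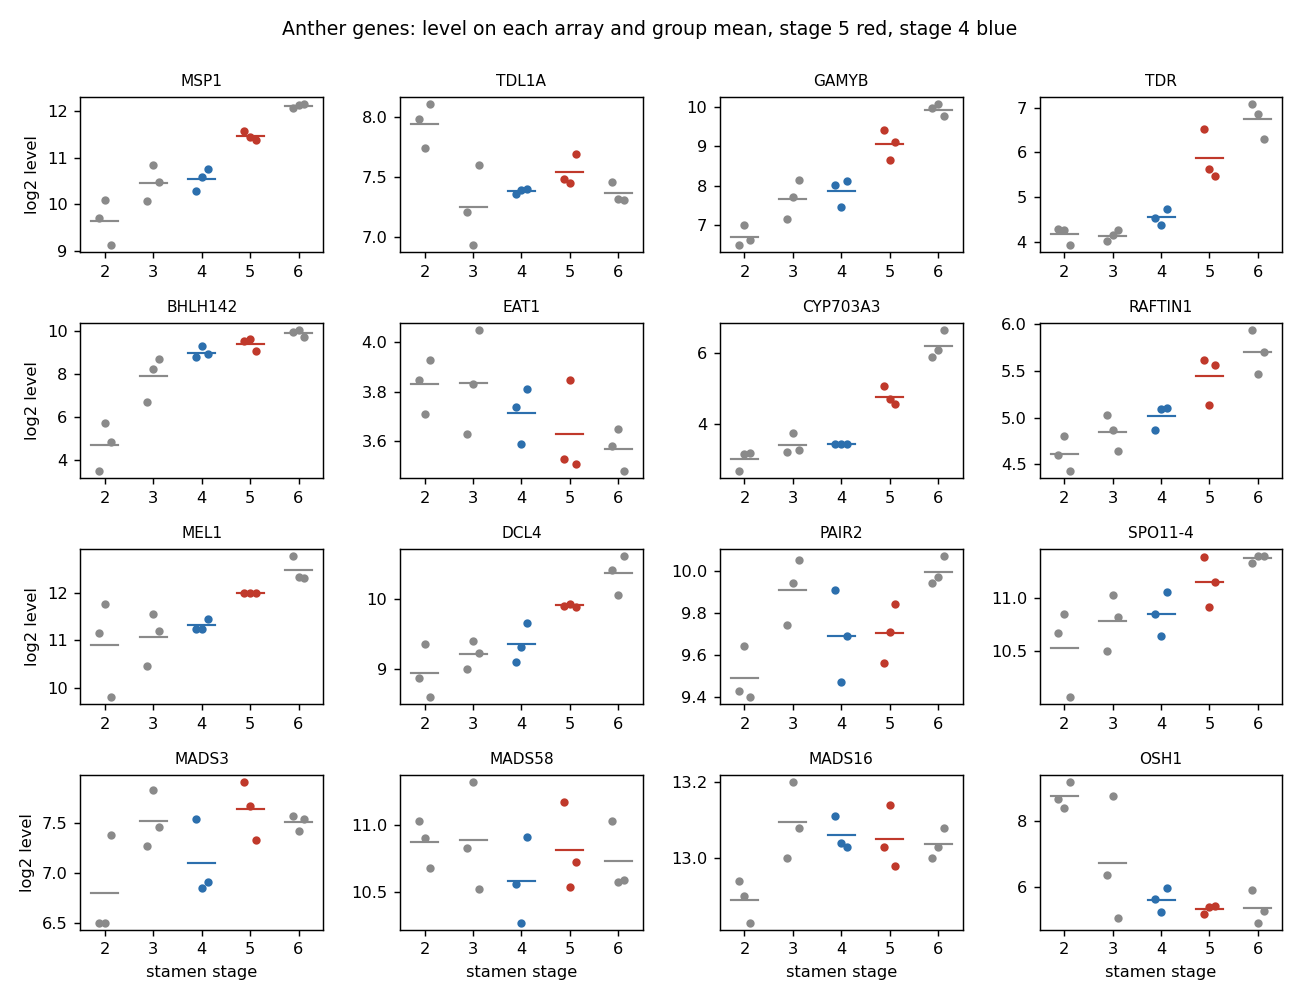
Log2 level (y axis) of 16 anther genes on each stamen array by stage (x axis); points are arrays, bars are group means, and the y axes differ. MSP1, TDL1A, GAMYB, TDR, CYP703A3, RAFTIN1, MEL1 and DCL4 have all 3 stage 5 points (red) above the stage 4 points (blue). BHLH142, PAIR2 and the MADS-box genes overlap.

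None of the 12 meiosis genes was called, and none had groups without overlap, against 11.6% of all genes with all 3 stage 5 values above and 7.46% with all below. Their median difference was 0.13, with a range of -0.13 to 0.40. PAIR2, an axis protein of meiotic chromosomes, stood at 9.56, 9.71 and 9.84 at stage 5 and at 9.91, 9.47 and 9.69 at stage 4. SPO11-4, a relative of the nuclease that makes meiotic breaks, stood at 11.38, 10.91 and 11.15 at stage 5 and at 10.85, 10.64 and 11.05 at stage 4. The widest difference was that of ZIP4, a crossover protein, at 0.40 (adjusted p = 0.415). For PAIR2 the 95% interval of the difference was -0.26 to 0.28, so a 2-fold difference lay outside it.

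Small RNA genes of the germ line and of general pathways were on 1 list, and none passed. MEL1, which binds phased small RNAs in the germ line, stood at 12.01, 12.01 and 11.99 at stage 5 and at 11.25, 11.24 and 11.46 at stage 4 (difference 0.69, SE 0.375, adjusted p = 0.562). That SE draws on the spread within all 5 stamen stages and is wide beside the scatter of these 6 values. DCL4, the Dicer that cuts phased 21-nucleotide RNAs, stood at 9.91, 9.94 and 9.89 at stage 5 and at 9.09, 9.31 and 9.66 at stage 4 (difference 0.56, adjusted p = 0.378). SHL2, the RNA-dependent RNA polymerase that makes the double-stranded precursors, had a difference of 0.42. MEL1 and DCL4 were called higher at stage 6 than at stage 3 (1.41 and 1.16), and SHL2, at 0.69, did not reach 2-fold. AGO18, a grass Argonaute, lay lower, at 7.19, 7.07 and 7.37 at stage 5 against 7.88, 7.54 and 7.40 at stage 4 (difference -0.40, adjusted p = 0.781). AGO14 averaged 0.60 higher at stage 5, but 1 array decided it: replicate 1 stood at 5.97, and replicates 2 and 3 at 4.35 and 4.72, within reach of the stage 4 values of 4.26 to 4.49. Over the 18 genes of the pathway there were 0 calls, a median of 0.13 and 14 stage 5 means above stage 4, where 55.7% of all genes were above.

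The 18 floral MADS-box genes had 0 calls and a median difference of -0.01. OsMADS16 stood at 13.03, 13.14 and 12.98 at stage 5 and at 13.11, 13.04 and 13.03 at stage 4, with a 95% interval of -0.19 to 0.17 for the difference. The C-class genes, which specify stamens and carpels, were not separable either: OsMADS58 stood at 11.17, 10.54 and 10.72 at stage 5 against 10.56, 10.27 and 10.91 at stage 4, and OsMADS3 at 7.91, 7.67 and 7.33 against 7.54, 6.85 and 6.91. OsMADS7, an E-class gene, was above on all 3 arrays, at 13.54, 13.39 and 13.20 against 12.94, 13.11 and 13.06 (difference 0.34, adjusted p = 0.33). OsMADS17 lay below on all 3, at 6.57, 6.81 and 7.21 against 7.21, 7.41 and 7.32 (difference -0.45, adjusted p = 0.577), where the highest stage 5 value met the lowest of stage 4. OsMADS14 had 4 probe sets, with differences of 0.52 to 1.03 and none called. Among the 4 carpel and ovule genes there were 0 calls, and OsMADS29 was high on stage 5 replicate 1 alone (5.68, against 4.32 and 4.38 on its other replicates and 4.15 to 4.58 at stage 4).

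FON1 was the only called gene of 11 meristem and organ polarity genes, whose median difference was -0.28, where 0.067% of all genes were called. Of the other 10, 8 had a lower mean at stage 5, where 55.7% of all genes had a higher one. YAB5, a YABBY factor, stood at 7.20, 7.53 and 7.38 at stage 5 and at 8.30, 8.58 and 8.15 at stage 4 without overlap (difference -0.98, adjusted p = 0.506). WOX11, a homeobox gene known from crown roots, stood at 4.26, 4.53 and 4.06 at stage 5 and at 4.64, 5.04 and 5.09 at stage 4 (difference -0.64, adjusted p = 0.448), and was called lower at stage 6 than at stage 3 (-1.59). OSH1, a KNOX gene of meristems, overlapped (5.18 to 5.42 at stage 5, 5.23 to 5.96 at stage 4). Its stage means of 8.74, 6.72, 5.61, 5.33 and 5.36 from stage 2 to stage 6 had most of their decline before stage 4.

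Genes of cell division were close together in direction. Kinesins are motor proteins of the spindle, the division plate and other microtubule tracks. Of 34 kinesin genes, 0 were called, where 0.067% of all genes were. A higher mean at stage 5 was found in 31 of them, against 55.7% of all genes, and the median difference was 0.39. In 22 all 3 stage 5 values were above all 3 stage 4 values, against 11.6% of all genes, and in 0 below. KCH1, a kinesin with an actin-binding domain, stood at 7.86, 7.59 and 7.56 at stage 5 and at 6.76, 6.21 and 6.71 at stage 4 (difference 1.11, adjusted p = 0.147). KIN7J stood at 10, 9.57 and 9.46 at stage 5 and at 8.30, 8.71 and 8.80 at stage 4 (difference 1.07, adjusted p = 0.252). KIN14F stood at 7.48, 7.24 and 7.25 at stage 5 and at 6.38, 6.26 and 6.30 at stage 4 (difference 1.01, adjusted p = 0.264). These and KIN14R were called higher at stage 6 than at stage 3. The median over the list, relative to the stage 4 mean, was 0.50, 0.33 and 0.39 on the stage 5 arrays and 0.07, -0.09 and 0.04 on the stage 4 arrays. Stage 5 replicate 1 was the highest of the 6 arrays in 17 of the 34, replicate 2 in 2 and replicate 3 in 11.

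The 29 DNA replication genes had 0 calls, a median difference of 0.38 and 26 stage 5 means above stage 4. In 11 all 3 stage 5 values were above. The same shares of all genes, 0.067% called, 55.7% with a higher mean and 11.6% without overlap, apply here. MCM7, a subunit of the replicative helicase, stood at 10.32, 9.69 and 9.61 at stage 5 and at 8.53, 8.74 and 9.36 at stage 4 (difference 1.00, adjusted p = 0.388). PCNA, the sliding clamp, stood at 12.39, 11.97 and 11.39 at stage 5 and at 10.55, 11.12 and 11.39 at stage 4, touching at the edge. RPA1B, a subunit of the single-strand binding protein, stood at 11.36, 11.07 and 10.58 at stage 5 and at 9.82, 10.14 and 10.36 at stage 4. The list median relative to stage 4 was 0.63, 0.35 and 0.15 on stage 5 replicates 1, 2 and 3, and replicate 1 was the highest of the 6 arrays in 23 of the 29 genes. Without that array the median was 0.27. The 8 mitotic cyclins and B-type kinases had a median of 0.20, and CYCA3-2 was the farthest, at 9.04, 8.77 and 8.48 against 8.35, 7.84 and 8.43 (adjusted p = 0.372). The 24 cytosolic ribosomal protein genes had a median of 0.10 and the 5 histone genes -0.13.

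**Figure D4:**
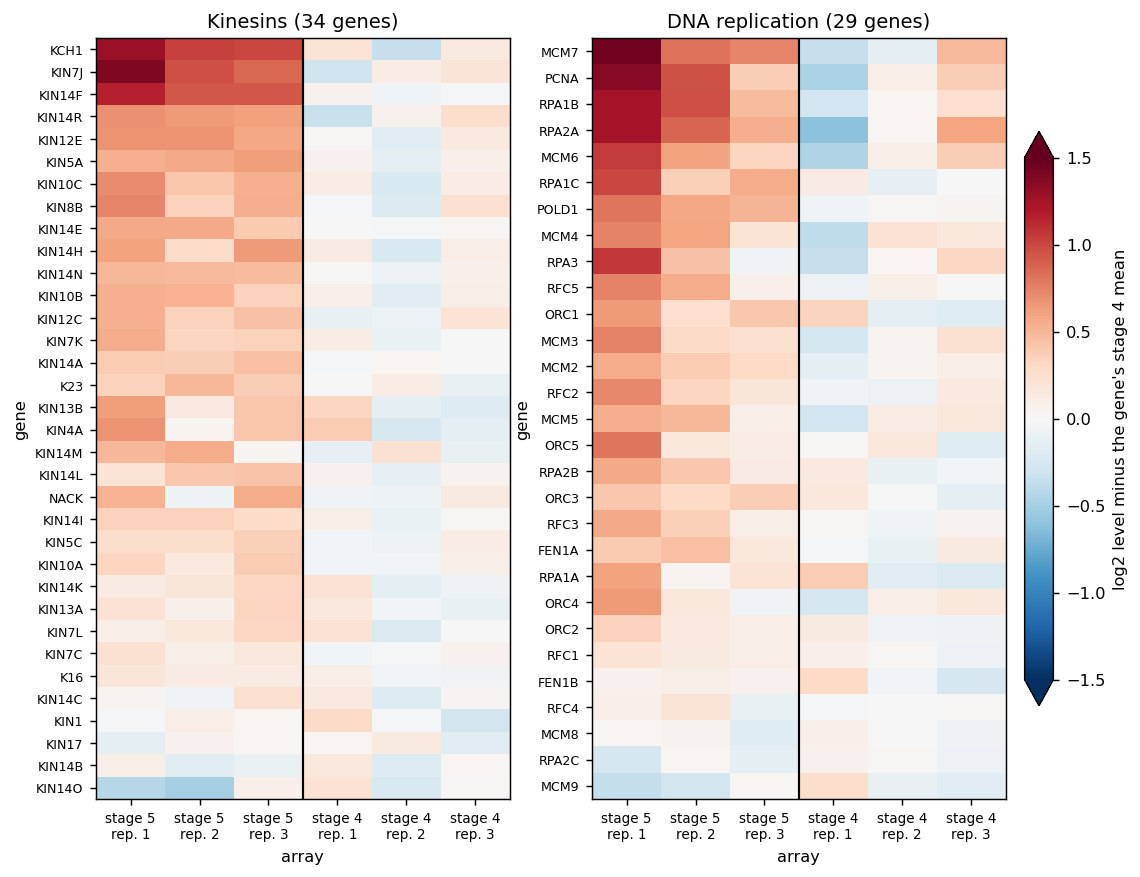
Log2 level minus the gene's stage 4 mean (colour, cut at -1.5 and 1.5) on each of the 6 arrays (columns, stage 5 to the left of the line) for 34 kinesin genes and 29 DNA replication genes (rows, sorted by the difference). The kinesin columns of stage 5 have medians of 0.50, 0.33 and 0.39, and the replication columns 0.63, 0.35 and 0.15.

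No gene of auxin or jasmonate signalling was called, and those named here were chosen after their values were seen. IAA14, an auxin-signalling repressor, stood at 6.66, 6.39 and 6.30 at stage 5 and at 4.87, 5.02 and 5.49 at stage 4 (difference 1.32, adjusted p = 0.209). JAZ2, a repressor of jasmonate signalling, stood at 6.14, 5.54 and 4.91 at stage 5 and at 4.63, 4.50 and 4.59 at stage 4 (difference 0.96, adjusted p = 0.193). JAR1, which joins jasmonate to isoleucine, stood at 7.6, 7.47 and 7.39 at stage 5 and at 6.65, 6.49 and 6.97 at stage 4 (difference 0.79, adjusted p = 0.192). All 3 were called higher at stage 6 than at stage 3. Other repressors of the family went the opposite way there: JAZ11, JAZ12, JAZ8 and JAZ5 were called lower at stage 6. Their differences between stages 5 and 4 were -0.65, -0.27, -0.35 and -0.34. The groups overlapped in each, and stage 5 replicate 1 was the lowest of its group. JAZ12 stood at 10.33, 11.51 and 11.16 at stage 5 and at 11.24, 11.07 and 11.48 at stage 4. Relative to the stage 4 mean, the jasmonate list median was -0.39, 0.10 and 0.10 on the stage 5 arrays. On the stage 4 arrays it was -0.05, -0.08 and 0.19. Of the 28 jasmonate genes, 2 were called higher and 5 lower at stage 6 than at stage 3. Of all genes, 2.07% were called higher and 3.04% lower there. Over the whole lists, 43 auxin-signalling genes had a median difference between stages 5 and 4 of 0.13 and 28 jasmonate genes of -0.03. Each list had 0 calls, where 0.067% of all genes were called.

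None of the 66 zinc finger and NAC genes was called, where 0.067% of all genes were. Their median difference was -0.02, with 31 higher means at stage 5, where 55.7% of all genes had one. In 8 genes all 3 stage 5 values were above, against 11.6% of all genes. In 11 all 3 were below, against 7.46% of all genes. The members named here were again chosen after their values were seen, as was OPR1. OPR1, an oxophytodienoate reductase, stood at 6.00, 5.83 and 6.64 at stage 5 and at 7.62, 8.22 and 7.09 at stage 4 (difference -1.49, adjusted p = 0.391). The lipoxygenase gene LOX1.1 scattered too widely to place (5.29, 6.25 and 8.11 at stage 5, 9.24, 6.25 and 8.45 at stage 4). NAC4, a transcription factor, stood at 8.87, 10.07 and 10.62 at stage 5 and at 10.86, 11.13 and 11.11 at stage 4 (difference -1.18, adjusted p = 0.328). NAC3 had a difference of -1.17, and the 3 probe sets of NAC5 had differences of -1.51 to -1.32, without overlap in any. For NAC6, known for its response to drought and cold, the brightest probe set had a difference of -1.09 and the other 2 had -0.02 and 0.04, so its probe sets disagreed. NAC3, NAC4, NAC5, the first of NAC6, OPR1 and LOX1.1 were called lower at stage 6 than at stage 3 (differences of -4.72 to -1.49).

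The zinc finger gene OsC3H43 had the second largest difference of all probe sets and lay just outside the threshold. It stood at 7.95, 7.22 and 7.13 at stage 5 and at 4.14, 3.97 and 5.92 at stage 4, a difference of 2.76 ± 0.445 (SE, adjusted p = 0.053). Stage 4 replicate 3 stood apart from the others of its group. Between stages 6 and 3 the gene was called higher by 4.06. LG2, a bZIP gene named for the ligule phenotype of its maize relative, passed the adjusted p on 1 of its probe sets (difference 0.93, adjusted p = 0.0463) without reaching 2-fold, and on the other reached 1.08 without passing (adjusted p = 0.0975). Green tissue genes gave no call. RBCS, the small subunit of Rubisco, stood at 8.64, 9.09 and 10.12 at stage 5 and at 10.39, 10.37 and 9.56 at stage 4 (difference -0.83, adjusted p = 0.558), against 14.30 in the expanded leaf. Its other 3 probe sets had differences of -0.33 to 0.10, and the 7 genes of the light reactions had a median of 0.21 with its members on both sides.

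**Figure D5:**
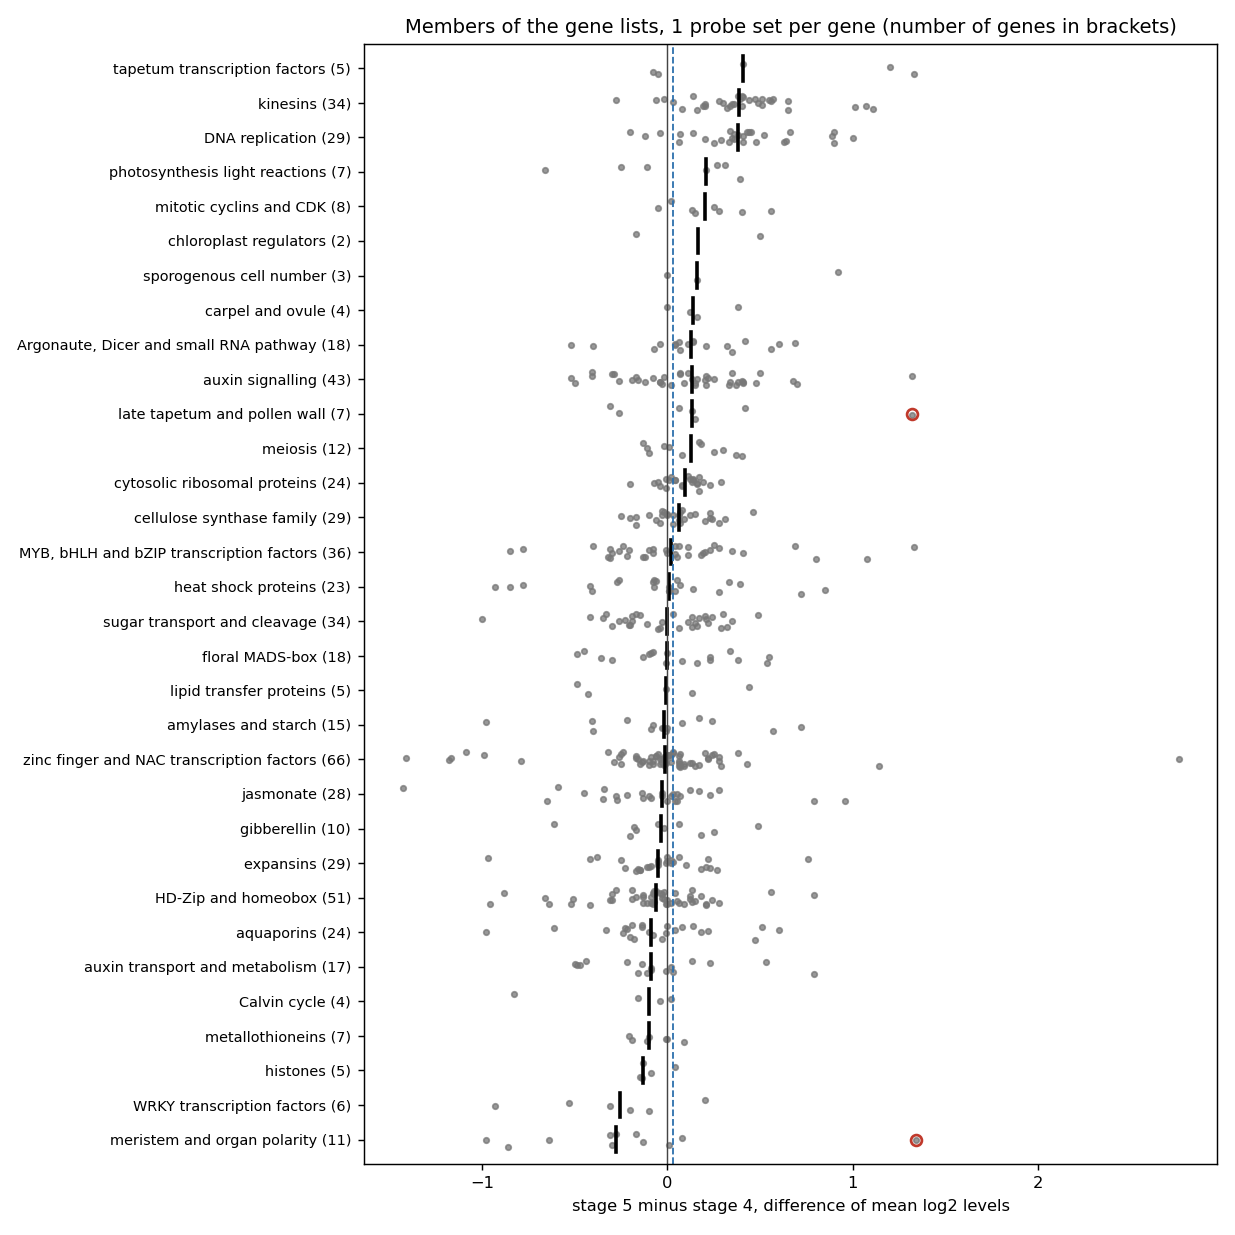
Difference of mean log2 levels, stage 5 minus stage 4 (x axis), for each gene of 32 lists (rows, sorted by median); grey points are genes, black bars are list medians, red circles are called genes, and the dashed blue line is the median of all genes, 0.03. Kinesins (0.39) and DNA replication (0.38) lie to the right as groups, and CYP703A3 and FON1 are the only called genes.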

How the data were processed

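RNA of 21 rice samples was amplified through 2 cycles from 50 to 300 ng of total RNA and hybridised to Affymetrix rice arrays, per the labels' protocols. The deposited log2 values, 1 per probe set and array, came from RMA, per the submitters' processing notes, with no version recorded there. RMA equalises the arrays' distributions, so a change common to most transcripts cannot be seen. From these values, limma 3.58.1 in R 4.3.3 was fitted to the 15 stamen arrays with 5 group means and no covariate. The 123 control probe sets were left out. All tests were two-sided, and p-values were adjusted by Benjamini-Hochberg over 57258 probe sets. The fit was also run on simulated data with known changes. The simulated noise was independent between arrays and probe sets, so it held no array-wide shift like those among the stage 5 arrays. The array number limits the precision: the median 95% interval reached 0.296 to each side.

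Gene names came from the platform annotation and RefSeq (ASM3414082v1): 22436 probe sets had 1 gene, 95 several and 34727 none, and 2451 genes had an informative name. The probe set with the highest mean stood for a gene on a list. Of 281 list members sought by symbol, 126 were not matched and were left out. The rule for names took called probe sets whose groups did not overlap and whose gene is named, every matched member of the sporogenous, tapetum, pollen wall, meiosis, MADS-box, carpel and small RNA lists, and up to 4 called members of each other list. Genes named beyond it, among them kinesins, replication, hormone, NAC, zinc finger, YABBY and green tissue genes, were chosen after their values were seen. The comparison, its members and the lists were chosen with earlier results of these data known. Alternatives were other scalings, filters, variance settings, samples in the fit, thresholds, the replicate block, and leaving out each array. No sequences are shown.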

Additional observations from a re-analysis of the deposited data

How the results depend on the processing

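The count of 17 probe sets called between stages 5 and 4 was 11 after quantile normalization, 2 among probe sets above the median mean, 108 with array weights, 9 with each array's 3' to 5' difference in the fit, 1 without the stage 2 arrays, 0 in limma with only the 6 arrays compared (6435 at an unadjusted p under 0.05), 26 with no fold threshold and 1 at an adjusted p under 0.01. It stayed between 14 and 25 with median centring, probe sets above log2 6 in 3 arrays, a trended and robust prior, all 21 arrays and means per gene. Leaving out 1 array gave 0 to 87 calls. The replicate block gave 1 call, and 1555 between stages 6 and 3. Same-numbered arrays of stages 5 and 4 deviated from their group means with r of -0.195, 0.12 and 0.001. For differently numbered arrays r was -0.247 to 0.248. With 3 arrays per stage these values cannot show whether the numbers pair the samples, and the labels do not say. The causes of the changes in the count were not tested. The count between stages 6 and 3 was 1614, and 4589 with no fold threshold, 997 at an adjusted p under 0.01, 931 with means per gene, and 1021 to 2068 without 1 array; the other alternatives left it within 1.5 times. Over the probe sets higher at stage 6 the median between stages 5 and 4 was 0.54 to 0.73 without 1 array, and over those lower -0.70 to -0.40. The kinesin median was 0.32 to 0.43 and the replication median 0.27 to 0.48 without 1 array. With all probe sets of a list, the median of the cyclins was 0.25 and that of the light reactions -0.11, the opposite side of 0 from 0.21. The ubiquitin and cyclophilin pairs gave a 3' to 5' signal that differed by 0.11 between the stages, where the actin and GAPDH pairs gave -0.01. Over 105 single genes, 51 of 2677 refits changed the sign, each in a gene called in neither fit. The fits to the 6 arrays of stages 6 and 3, those of the medians, and the list medians without 1 array were chosen after seeing the data.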
